A study of Homo sapiens with 5 samples.

Results

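GAD/DLX cells were the human cells of grafted brain organoids in which at least 1 unique molecular identifier (UMI, 1 captured RNA molecule) was counted for 2 or more of the genes GAD1, GAD2, DLX1, DLX2, DLX5, DLX6-AS1 and SP9, which mark the inhibitory neuron lineage of the forebrain. They numbered 1726 of 29505 human graft cells (5.85%), and the series held 34405 human cells in all. Because the cells were chosen by measured UMIs of these 7 genes, the levels of the 7 genes are given as a description, without a test. Organoids were grown from the human embryonic stem cell line H9 (labelled WT, with a ChR2-EYFP transgene at the AAVS locus in the study's methods). They were kept in culture to day 42 and placed in the prefrontal cortex (PFC) or hippocampus (HIP) of immunodeficient SCID mice (also named SCID-Beige in the study) grafted as young adults. Single-cell RNA was measured in 4 graft libraries, HIP_2MPT, PFC_2MPT, HIP_4MPT and PFC_4MPT, where MPT stands for months post transplantation, and in 1 library of organoids before grafting (D0). EYFP-bearing tissue was cut out under a fluorescence microscope and digested with trypsin, and several mice were pooled into each library. Each condition had 1 library from 1 cell line, so that mouse, graft and library cannot be told apart. Between stages the HIP and PFC libraries served as the replicates of a stage (n = 2), and p-values measure only the spread between these libraries.

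Inhibitory neurons of the forebrain make the transmitter GABA with the glutamate decarboxylases encoded by GAD1 and GAD2. Most of them arise from cycling progenitors of the ganglionic eminences in the ventral forebrain, where the homeodomain factors of the DLX family and the zinc finger factor SP9 act, and they then migrate into cortex, olfactory bulb and striatum. The medial eminence (MGE) gives rise to SST and PVALB interneurons through NKX2-1 and LHX6, the caudal eminence (CGE) to VIP and other interneurons that use NR2F2 and PROX1, and the lateral eminence (LGE) to striatal and olfactory bulb neurons that use MEIS2, SP8, PAX6 or ISL1.

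The genes that chose the cells lie in few places of the genome (GRCh38, GENCODE annotation). DLX1 (chromosome 2, 172084740 to 172089677, plus strand) and DLX2 (172099438 to 172102900, minus strand) are 9.76 kb apart, and GAD1 (170813213 to 170861151) and SP9 (174334954 to 174338500) lie on the same chromosome within a span of 3525 kb. On chromosome 7, the long noncoding RNA DLX6-AS1 (96955141 to 97014088, minus strand) contains DLX6 (97005553 to 97011040) on the opposite strand and ends 6.31 kb before DLX5 (97020396 to 97024950). GAD2 is alone on chromosome 10 (26216665 to 26304558). RefSeq start windows (GRCh38.p14, 250 bases before to 50 after each start) were found for 5 of the 7 genes, with 6 windows. DLX5 and SP9 had no entry. The homeodomain core TAATTA, which reads the same on both strands, was present in 1 of the 6 windows and in 4.84% of 35116 windows of the same length. The E-box CAGCTG, likewise a palindrome that does not overlap the first motif, was in 1 of the 6 windows and in 17.9% of all. The windows with a match are shown because DLX proteins are homeodomain factors and basic helix-loop-helix factors bind E-boxes. A match of letters is not a binding site. Capitals mark the motif, at positions counted from the 5′ end.
DLX6-AS1, chr7:97014016-97014315, minus strand, TAATTA from position 42: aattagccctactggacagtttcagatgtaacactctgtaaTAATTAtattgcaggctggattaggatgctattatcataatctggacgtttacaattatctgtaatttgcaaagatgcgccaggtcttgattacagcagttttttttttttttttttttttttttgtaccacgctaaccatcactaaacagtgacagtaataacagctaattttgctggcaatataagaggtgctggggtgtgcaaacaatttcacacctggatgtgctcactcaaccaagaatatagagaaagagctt
GAD2, chr10:26216122-26216421, plus strand, CAGCTG 2 times, first from position 44: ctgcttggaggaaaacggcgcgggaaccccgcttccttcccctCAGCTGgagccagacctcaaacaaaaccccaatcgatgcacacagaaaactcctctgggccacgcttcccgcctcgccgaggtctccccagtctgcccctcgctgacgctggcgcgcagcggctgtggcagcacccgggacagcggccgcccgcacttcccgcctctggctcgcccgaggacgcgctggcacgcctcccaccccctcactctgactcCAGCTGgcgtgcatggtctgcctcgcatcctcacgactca

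GAD/DLX cells were rare at 2MPT and common at 4MPT, and at each stage their share was higher in the PFC graft. They were 4 of 8277 human cells in HIP_2MPT (0.0483%, exact 95% binomial interval 0.0132 to 0.124), 29 of 5952 in PFC_2MPT (0.487%, 0.327 to 0.699), 366 of 6913 in HIP_4MPT (5.29%, 4.78 to 5.85) and 1327 of 8363 in PFC_4MPT (15.9%, 15.1 to 16.7). The intervals, which cover counting error only, did not overlap between any of the libraries. Of all GAD/DLX cells, 98.1% came from the 4MPT grafts. The mean share was 10.6% ± 7.48 (SD, n = 2) at 4MPT and 0.268% ± 0.310 (SD, n = 2) at 2MPT, a difference of 10.3 percentage points. The ranges of the stages did not overlap, and the two-sided exact permutation test gave p = 0.333, the smallest that 2 libraries against 2 allow. With every cell thinned to 1000 UMIs, which leaves out shallower cells (1635, 233, 171 and 982 graft cells in the order above), the shares were 0.0301%, 0.315%, 4.02% and 13.3%, so the order of the libraries stayed.

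**Figure D1:**
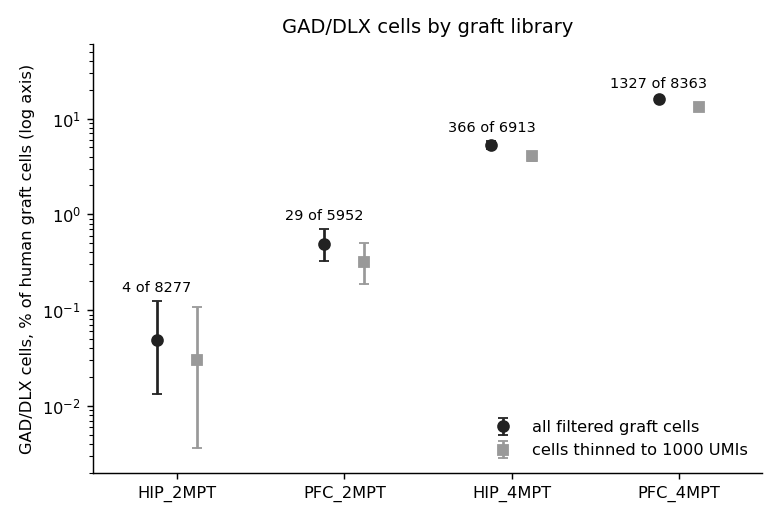
Share of human graft cells that were GAD/DLX cells in each library, in percent on a log axis, with exact 95% binomial intervals for counting error. Black circles are all filtered cells, with their counts printed, and grey squares are cells thinned to 1000 UMIs. The share runs from 0.0483% in HIP_2MPT to 15.9% in PFC_4MPT.

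Free RNA in the droplets can put UMIs of these genes into other cells, so they were looked for in mouse host barcodes and human cells of other gates. The human cells need not lack them, since OLIG1 of the glial list is also a factor of ventral progenitors. Their shares can therefore hold more than free RNA. Among barcodes of the mouse host, none of 916, 772 and 2071 in HIP_2MPT, PFC_2MPT and HIP_4MPT held 2 or more of the human genes, which allows shares of up to 0.328%, 0.389% and 0.145%. In PFC_4MPT, 6 of 1202 did (0.499%). Human cells with 2 or more of 8 glial genes and outside the cycling gate held them in 28 of 1546 cells in HIP_4MPT (1.81%, median depth 3680.5 UMIs) and in 57 of 1058 in PFC_4MPT (5.39%, median depth 2691 UMIs). These shares were below 5.29% and 15.9%, the shares over all human cells of the same libraries. The sets are unlike, because the shares over all human cells count GAD/DLX cells inside the cycling gate as well. Without those, GAD/DLX cells were 3.37% of all human cells in HIP_4MPT and 12.5% in PFC_4MPT. At 2MPT they were held by 1 of 166 such cells in PFC_2MPT (0.602%), above the 0.487% over all human cells of that library but with an exact interval of 0.0153 to 3.31 that includes it, and by 0 of 46 in HIP_2MPT, where the interval reaches 7.71%. Among human cells with 2 or more of 7 genes of excitatory neurons, GAD/DLX cells numbered 0 of 3690 (exact interval to 0.0999%), 2 of 3224 (0.0620%, to 0.224), 8 of 2247 (0.356%) and 71 of 1755 (4.05%), in the order HIP_2MPT, PFC_2MPT, HIP_4MPT, PFC_4MPT. The median depth of GAD/DLX cells was 1473.5, 2901, 3018 and 1970 UMIs, against 1253, 2356, 2749 and 1821 in other graft cells. Pairs of graft libraries had 15 to 34 barcodes in common. No barcode was that of a GAD/DLX cell in more than 1 library, but GAD/DLX barcodes of PFC_4MPT recurred among the other graft cells, 1 in HIP_4MPT and 2 in PFC_2MPT. Mouse UMIs of the same 7 genes in these cells numbered 0, 0, 1 and 19.

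Most GAD/DLX cells held more of the 7 genes than the rule asked for. At least 3 of them were found in 3, 23, 306 and 1021 GAD/DLX cells of HIP_2MPT, PFC_2MPT, HIP_4MPT and PFC_4MPT (83.6% and 76.9% in the 4MPT libraries). A GAD gene occurred with DLX or SP9 genes in 320 cells of HIP_4MPT (87.4%) and 1032 of PFC_4MPT (77.8%), DLX or SP9 genes without a GAD gene in 45 (12.3%) and 291 (21.9%), and both GAD genes with no other in 1 and 4. GAD2 had the highest share of the 7 genes in each 4MPT library and was detected in 82.8% of the cells in PFC_2MPT, 83.3% in HIP_4MPT and 73.1% in PFC_4MPT, and in 0.947% and 3.34% of the other cells of the 4MPT libraries. GAD1 was found in 20.7%, 29.0% and 19.0%, and SP9 in 24.1%, 32.0% and 29.8%. DLX1 was found in 55.2%, 76.5% and 56.4%, and DLX2 in 86.2%, 74.6% and 57.6%. DLX5, by contrast, was found in 48.3%, 57.9% and 65.0%, and its summed level was 381, 353 and 615 CPM (UMIs of the gene per 1000000 UMIs of the GAD/DLX cells of a library). DLX6-AS1 was found in 44.8%, 63.4% and 61.5%, with a level of 294, 583 and 548 CPM. All these are values that the choice of the cells used.

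The cells just inside and outside the threshold of 2 genes differed in genes that the rule did not read. At 4MPT, 963 cells had 1 of the 7 genes, 366 had 2 and 424 had 3. The level of DLX6, the neighbour of DLX5, was 4.32, 18.9 and 33.8 CPM in these classes, with both libraries pooled. Its step at the threshold came from PFC_4MPT alone, where it rose from 6.56 CPM with 1 gene to 24.8 CPM with 2. In HIP_4MPT neither of these classes held a DLX6 UMI, and cells with 3 genes reached 16.7 CPM. NEUROD2, a factor of excitatory neurons, was at 146, 42.6 and 45.4 CPM, and the share of cells with 2 or more excitatory genes was 19.2%, 5.74% and 5.19%.

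Most GAD/DLX cells carried genes of young neurons, but a large share carried genes of dividing cells as well, so they are named here by their genes and not as inhibitory neurons. At least 2 of STMN2, DCX, TUBB3, SYT1 and SNAP25 were detected in 4 of 4, 27 of 29, 316 (86.3%) and 1211 (91.3%) cells of HIP_2MPT, PFC_2MPT, HIP_4MPT and PFC_4MPT, against 89.7%, 84.6%, 72.0% and 73.1% of the other graft cells. The cycling gate, 2 or more of MKI67, TOP2A, CENPF, NUSAP1, UBE2C, PBK and ASPM, was passed by 1 of 4, 13 of 29 (44.8%), 133 of 366 (36.3%, interval 31.4 to 41.5) and 285 of 1327 (21.5%, 19.3 to 23.8) GAD/DLX cells. The other graft cells passed it in 4.33%, 8.59%, 5.50% and 3.33% of cases. After thinning to 1000 UMIs the shares at 4MPT were 21.0% in HIP and 13.4% in PFC, against 3.35% and 3.01%. Cells with neuronal genes and no cycling gate were 207 (56.6%) in HIP_4MPT and 960 (72.3%) in PFC_4MPT, cells with both were 109 (29.8%) and 251 (18.9%), cycling cells without the neuronal genes were 24 (6.56%) and 34 (2.56%), and cells with neither were 26 (7.10%) and 82 (6.18%). These are gene detections, not measured divisions.

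**Figure D2:**
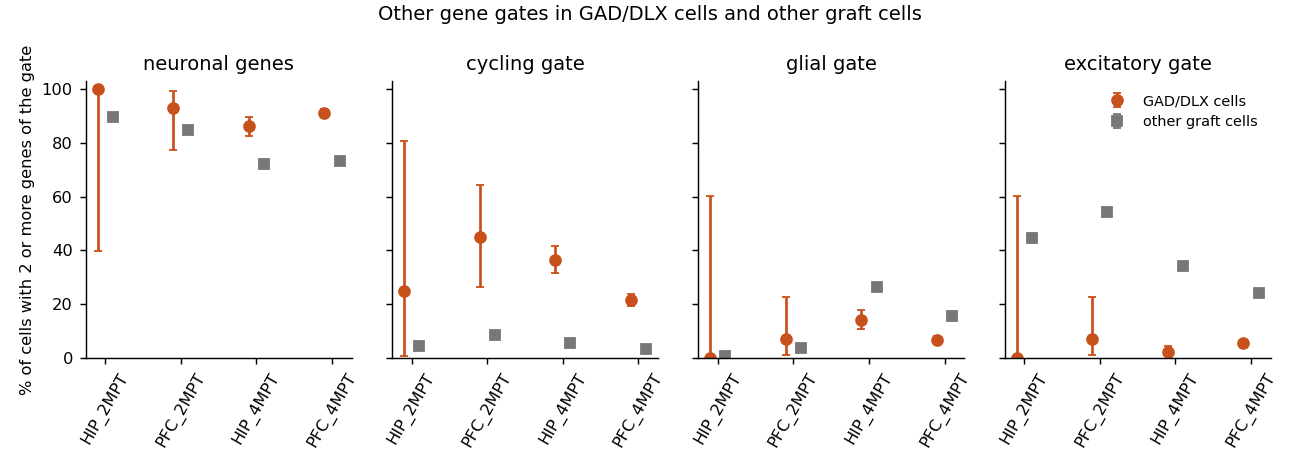
Percent of GAD/DLX cells (orange circles) and of other graft cells (grey squares) with 2 or more genes of the neuronal, cycling, glial and excitatory gates in each library, with exact 95% binomial intervals for counting error. The cycling share of GAD/DLX cells is 36.3% in HIP_4MPT and 21.5% in PFC_4MPT, and the excitatory share is below that of the other cells in every library.

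The levels of markers of other cell types differed from list to list. The excitatory gate (2 or more of NEUROD1, NEUROD2, NEUROD6, BHLHE22, TBR1, SLC17A6 and SLC17A7) was passed by 0, 2, 8 (2.19%) and 71 (5.35%) GAD/DLX cells, against 44.6%, 54.4%, 34.2% and 23.9% of the other cells. The summed level of its 7 genes was 185, 76.2, 36.8 and 134 CPM, against 554 and 586 CPM in the other cells of HIP_4MPT and PFC_4MPT, and NEUROD2 was the most abundant. The glial gate was passed by 0, 2 (6.90%), 51 (13.9%) and 87 (6.56%) GAD/DLX cells, against 0.629%, 3.80%, 26.3% and 15.4% of the other cells, and OLIG1 was its most abundant gene. After thinning to 1000 UMIs it was passed at 4MPT by 1.11% of GAD/DLX cells in HIP and 0.818% in PFC, against 12.9% and 9.15%. The excitatory gate was then passed by 0% and 1.02%, against 11.4% and 10.9%. The 8 genes of the glial gate summed to 185 CPM in HIP_2MPT and 272 CPM in PFC_2MPT, against 44.8 and 109.9 CPM in the other cells. At 4MPT they summed to 391 CPM in HIP_4MPT and 238 CPM in PFC_4MPT, against 970 and 662 CPM in the other cells. AQP1, OTX2 and CLIC6 of the choroid plexus list, and HBA1, HBA2, HBB, COL1A1, CSF1R and PTPRC of the blood, vessel and microglia list, were at 0 in all 4 libraries. The collagen gene COL1A2 of that list was at 8.0 and 17.6 CPM in HIP_4MPT and PFC_4MPT, against 0.247 and 0.435 CPM in the other cells. The 12 astrocyte genes summed to 306 and 362 CPM, against 2274 and 1363 CPM, and CLU was the most abundant. Of the radial glia genes, SOX2 was at 185, 783, 850 and 569 CPM in HIP_2MPT, PFC_2MPT, HIP_4MPT and PFC_4MPT, above the 505 and 305 CPM of the other 4MPT cells, whereas VIM was at 76.8 and 111 CPM, against 659 and 523 CPM, and HES1 at 28.8 and 55.6 CPM, against 255 and 237 CPM. HES5, a Notch target of the same cells, was at 0, 3678, 689 and 1662 CPM, against 36.0, 1126, 999.6 and 1469 CPM in the other cells. The 16 progenitor and radial glia genes summed to 5176, 8519.95, 4371 and 4942 CPM in GAD/DLX cells and to 1797, 4699, 4800.1 and 5012 CPM in the other cells. The sum was above that of the other cells in both 2MPT libraries, of which HIP_2MPT has 4 GAD/DLX cells with 5410 UMIs. It was below that of the other cells in HIP_4MPT and close to it in PFC_4MPT. No doublet caller was run, and the part of doublets or free RNA in the cells that pass a second gate was not tested.

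The partners of the DLX genes and the ventral factors, which the rule did not read, were present in GAD/DLX cells of both sites. DLX6 was at 185 CPM in HIP_2MPT (1 UMI of the 5410 in its 4 cells), 76.2 CPM in PFC_2MPT, 56.0 CPM in HIP_4MPT and 50.7 CPM in PFC_4MPT, and the other cells of the 4MPT libraries were at 0.148 and 1.31 CPM. GSX2, a homeodomain factor of LGE progenitors, was at 185, 97.9, 129 and 72.9 CPM, against 13.7 and 13.0 CPM. INSM1, a factor of newborn neurons and their progenitors, was at 0, 555, 431 and 340 CPM, against 162 and 193 CPM. NKX2-1, the factor of the medial eminence, had no UMI in any GAD/DLX cell, which allows up to 2.40 CPM in HIP_4MPT and 0.976 CPM in PFC_4MPT. ISL1, a factor of striatal projection neurons, was at 3.20 and 1.95 CPM at 4MPT.

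The lineage lists of the 3 eminences all had UMIs in GAD/DLX cells, and NKX2-1 and LHX6 of the medial eminence were at or near 0. At 4MPT the 16 MGE genes, of which 14 had a UMI, summed to 750.4 CPM in HIP and 709 CPM in PFC, against 437 and 339.6 CPM in the other cells. The LGE and olfactory list summed to 1462 and 1215 CPM, against 2109 and 1245 CPM, and the CGE list to 2605 and 1899.5 CPM, against 2753 and 1805.5 CPM. PAX6, which in the eminences is used by olfactory bulb neurons and in the cortex by radial glia, was at 1109, 566, 238 and 287 CPM over the 4 libraries in the order HIP_2MPT, PFC_2MPT, HIP_4MPT and PFC_4MPT, against 65.9 and 49.4 CPM in the other 4MPT cells. SP8, a factor of the dorsal LGE and CGE, was at 0, 87.0, 21.6 and 40.0 CPM, against 1.09 and 1.81 CPM. MEIS2 was at 370, 718, 696 and 469 CPM, and here the other cells were higher, at 1596 and 872 CPM. PROX1, which the caudal eminence uses, was at 0, 43.5, 60.8 and 48.5 CPM, against 11.9 and 10.9 CPM. NR2F1 (COUP-TFI) was at 0, 131, 624 and 272 CPM and higher in the other cells (840 and 370 CPM at 4MPT). The calcium-binding protein gene SCGN (secretagogin) was at 0, 196, 23.2 and 194 CPM, against 0.297 and 7.83 CPM, and was detected in 4.37% of the cells in HIP_4MPT and 21.0% in PFC_4MPT. CALB2 (calretinin) was at 0, 65.3, 16.8 and 40.3 CPM, against 0.0495 and 2.25 CPM. LHX6, on which MGE interneurons depend, had UMIs only in HIP_4MPT (1.60 CPM), LHX8 likewise (0.80 CPM), and PVALB had none. SOX6, also used by progenitors outside the eminence, was at 370, 348, 361 and 210 CPM, against 175 and 100 CPM at 4MPT.

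**Figure D3:**
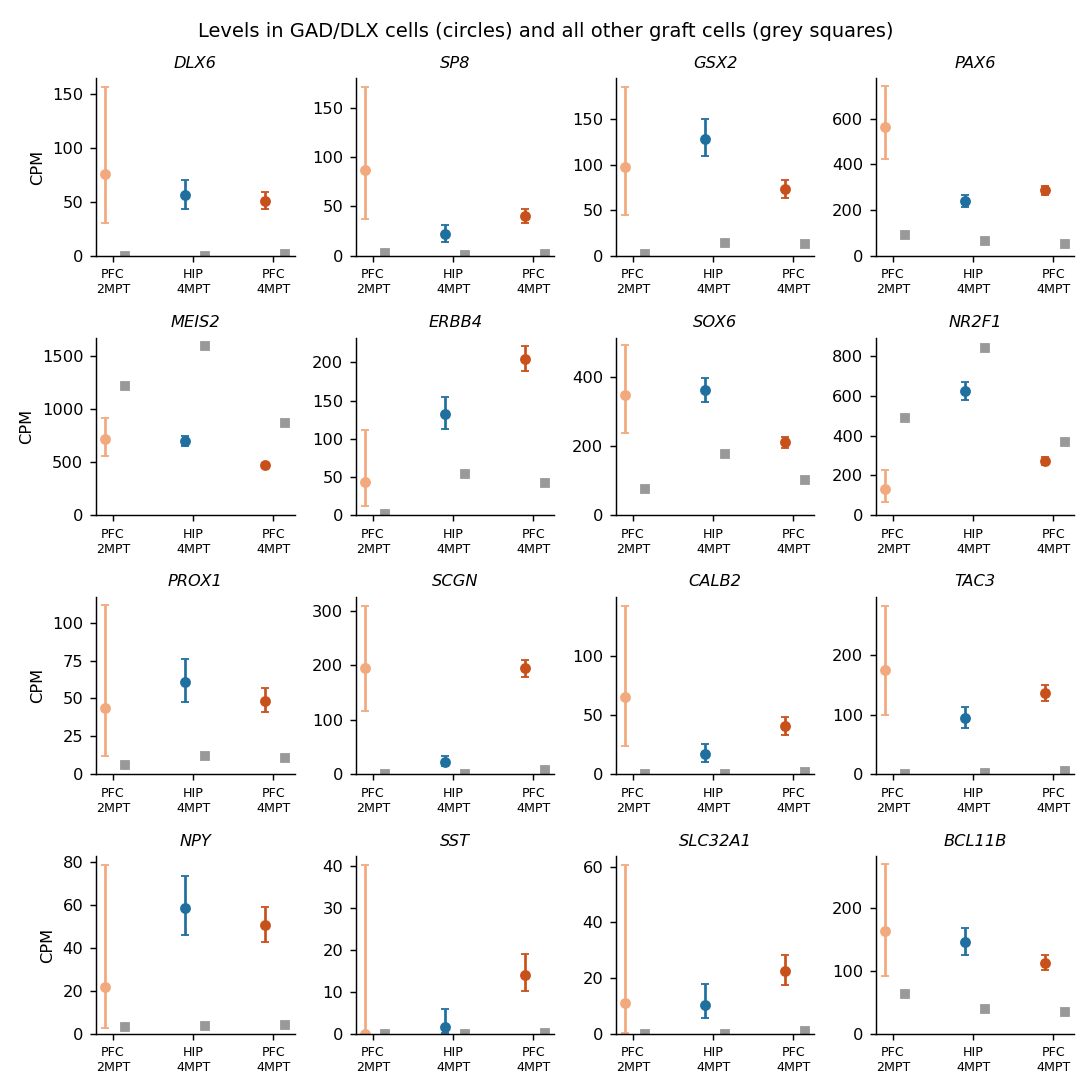
Levels of 16 genes in CPM in GAD/DLX cells (coloured circles) and in all other graft cells (grey squares) of PFC_2MPT, HIP_4MPT and PFC_4MPT, with exact 95% Poisson intervals for counting error. HIP_2MPT, with 4 GAD/DLX cells, is not drawn, and each panel has its own linear axis from 0. DLX6, SP8, GSX2, PAX6, PROX1, SCGN, CALB2 and TAC3 lie above the other cells in all 3 libraries, and MEIS2 and NR2F1 lie below them.

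A list of 10 genes of GABA metabolism, transport and chloride balance, which leaves out GAD1 and GAD2, summed to 185, 185, 138 and 196 CPM in HIP_2MPT, PFC_2MPT, HIP_4MPT and PFC_4MPT, below the 263, 227, 264 and 268 CPM of the other cells, but single genes differed in direction. GAD2 alone was at 1294, 1523, 1028 and 1064 CPM, a value that the choice of the cells used. SLC32A1, the vesicular GABA transporter, was at 0, 10.9, 10.4 and 22.4 CPM, above the 0.0495 and 0.870 CPM of the other 4MPT cells. SLC12A5 (KCC2), the chloride exporter of mature neurons, was at 27.2 and 42.6 CPM, below the 76.7 and 96.4 CPM of the other cells. Of 17 GABA receptor and anchoring genes 14 had a UMI in GAD/DLX cells, and GABRA5 and GABRE were among those with none. The migration gene DCX was at 555, 577, 543 and 561 CPM in the 4 libraries, against 246 and 251 CPM, and the guidance receptor ROBO2 was at 0, 1393, 1735 and 1075 CPM, against 794 and 593 CPM. The 20 migration genes summed to 1294, 3188, 3369 and 2813 CPM, against 4267, 3395, 3164 and 2648 CPM, and without DCX and ROBO2 the rest of the list summed to less than in the other cells at 4MPT as well. BCL11B (CTIP2), which striatal and deep-layer neurons use, was at 145 and 112 CPM at 4MPT, against 38.6 and 34.4 CPM.

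Of 19 neuropeptide and calcium-binding genes 13 had a UMI in GAD/DLX cells, and TAC3 was the most abundant. TAC3, the precursor of neurokinin B, was at 924 CPM in HIP_2MPT, 174 CPM in PFC_2MPT, 94.4 CPM in HIP_4MPT and 136 CPM in PFC_4MPT, against 2.13 and 5.15 CPM in the other 4MPT cells. The HIP_2MPT value came wholly from its 1 cell inside the cycling gate, and its 3 other cells had none. TAC3 was detected in 18.0% and 15.3% of the 4MPT cells, against 0.339% and 0.767% of the others. NPY (neuropeptide Y) was at 0, 21.8, 58.4 and 50.4 CPM, against 3.66 and 4.06 CPM. SST (somatostatin) was at 0, 0, 1.60 and 14.0 CPM and was found in 0.546% and 0.678% of the 4MPT cells, so its level in PFC_4MPT came from few cells. VIP had 1 UMI, in PFC_4MPT, and PVALB, CARTPT, NOS1, PDYN, TAC1 and GAL had none. HTR3A, the serotonin receptor of CGE interneurons, also had none.

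Set beside excitatory-marker cells, the other graft cells with 2 or more excitatory genes (3690, 3222, 2239 and 1684 cells), GAD/DLX cells were higher in all 4 libraries for 831 of 12850 genes with at least 100 UMIs (6.47%) and lower in all 4 for 3634 (28.3%). After thinning to 1000 UMIs the counts were 317 and 3558. Because the choice of both cell classes bears on every gene, these counts are a description, without a test, and HIP_2MPT rests on 5410 UMIs, where a gene with no UMI counts as lower whatever its level under 185 CPM. The median log2 ratio over libraries, with 5 CPM added, was largest for NRXN3, a presynaptic adhesion gene (6.35 ± 0.78, SD over 4 libraries). NRXN3 was at 1479, 1948, 1887 and 1656 CPM in GAD/DLX cells and at 24.9, 7.34, 11.97 and 22.9 CPM in excitatory-marker cells. The noncoding RNA SOX2-OT followed (5.54 ± 0.85), at 1664, 1774, 3112 and 1902 CPM against 16.6, 21.2, 93.1 and 77.8 CPM. TAC3 (4.61 ± 1.08) and GSX2 (4.19 ± 0.91) were among the 15 highest, together with PLS3 (4.27 ± 0.45), IL1RAPL2 (4.13 ± 1.32), LGALS1 (4.01 ± 0.60) and MCUB (3.91 ± 0.92). A further 6 of the 15, UBE2C, TOP2A, BIRC5, PCLAF, NUSAP1 and PTTG1, are genes of dividing cells, and their ratios were between 3.90 and 4.90. At the other end stood HS6ST3 (-4.99 ± 1.41), a heparan sulfate sulfotransferase, and LINC01405 (-4.27 ± 1.17). Both had no UMI in GAD/DLX cells of the 2MPT libraries, so that their ratios depend on the amount added (-6.25 and -5.67 with 1 CPM). RBFOX1, a splicing factor of maturing neurons, was at 74.4 and 187 CPM in GAD/DLX cells of HIP_4MPT and PFC_4MPT and at 1704 and 1135 CPM in excitatory-marker cells (-3.70 ± 2.16). A further 11 of the 15 lowest genes, CLMP, KLHL35, PRSS12, KIAA1324, PALMD, FAM155A, SLC4A10, GPR85, PLXNA4, SEMA3C and SLC44A5, had ratios between -3.89 and -3.54. KLHL35, PRSS12, KIAA1324, SLC4A10, GPR85 and PLXNA4 among them also had no UMI in GAD/DLX cells at 2MPT, and with 1 CPM added their ratios were between -5.50 and -5.00.

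Within the GAD/DLX cells of the 4MPT libraries, the cells outside the cycling gate were over 2-fold higher than those inside it in both grafts for 2 of 10 CGE genes, 2 of 7 MGE genes and 1 of 9 LGE and olfactory genes, and over 2-fold lower for 3 of 5 neuropeptide and calcium-binding genes and 1 of the 7 MGE genes, NPY, which both lists hold. Each library is 1 sample, so the ratios carry counting intervals and no test. Of 7916 genes with at least 20 UMIs in each library, 130 (1.64%) were over 2-fold higher outside the gate in both libraries and 394 (4.98%) over 2-fold higher inside it, and the median ratio of outside to inside was 1.02 in HIP_4MPT and 1.04 in PFC_4MPT. Of the migration genes 3 of 15 were over 2-fold higher outside the gate in both libraries (median ratios 1.71 and 1.74). So were 3 of 6 astrocyte genes (1.87 and 1.57), and 3 of 15 progenitor and radial glia genes were over 2-fold higher inside it. The part of other cell types in these ratios was not tested. ERBB4, the neuregulin receptor of migrating interneurons, was at 249 CPM outside and 14.6 CPM inside the gate in HIP_4MPT (ratio 17.1, 95% interval 8.77 to 38.0) and at 295 and 15.1 CPM in PFC_4MPT (19.6, 11.8 to 35.2). ADARB2, an RNA-editing family gene of CGE interneurons, had ratios of 16.6 (4.27 to 143) and 8.06 (3.98 to 19.1). SCGN (3.75 and 5.23) and STMN2, a growth cone gene (3.21 and 3.98), were also higher outside the gate. Among the genes that chose the cells DLX6-AS1 alone passed 2-fold, with 833 against 328 CPM in HIP_4MPT and 685 against 260 CPM in PFC_4MPT, which is a description because its UMIs helped to choose the cells.

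Inside the gate, 3 of the 5 neuropeptide and calcium-binding genes with enough UMIs were over 2-fold higher in both libraries (median ratios of outside to inside 0.275 and 0.326 over the 5). NPY was at 92.2 CPM inside and 25.3 CPM outside in HIP_4MPT (ratio 3.64, 2.06 to 6.79) and at 112 and 21.2 CPM in PFC_4MPT (5.28, 3.69 to 7.67). NMU (neuromedin U) was at 87.3 against 1.58 CPM and at 115 against 3.84 CPM. The same gene was at 78.5 and 122 CPM in cycling cells that were not GAD/DLX cells, so its level inside the gate was not particular to GAD/DLX cells. CORT (cortistatin) was the third gene, at ratios of 4.08 (1.32 to 16.8) and 3.07 (1.52 to 6.36). TAC3 was at 112 CPM inside and 77.6 CPM outside in HIP_4MPT (1.44, 0.983 to 2.12), an interval that includes 1, and at 234 and 89.4 CPM in PFC_4MPT (2.62, 2.15 to 3.20).

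**Figure D4:**
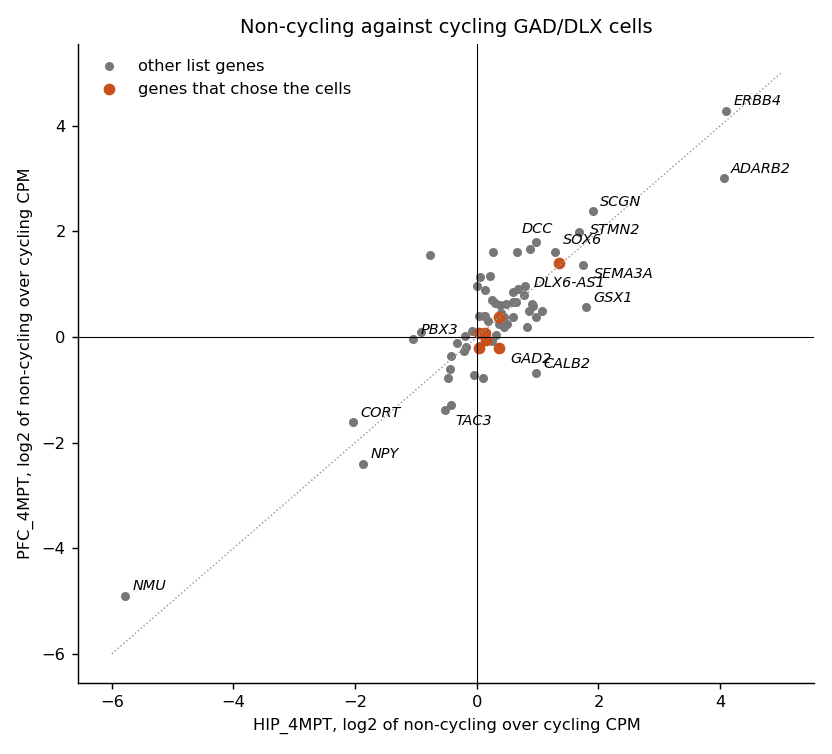
Log2 ratio of the level in non-cycling to that in cycling GAD/DLX cells, in HIP_4MPT (x axis) and PFC_4MPT (y axis), for 73 list genes with at least 20 UMIs in each library. Orange points are genes that chose the cells, the dotted line marks equal ratios, and error bars are left out. ERBB4 and ADARB2 lie at the upper right, and NMU, NPY and CORT at the lower left.

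At 4MPT the PFC and HIP grafts could be set side by side with enough cells (1327 with 3073966 UMIs and 366 with 1249925 UMIs), but with 1 library each and so with no test of the sites. Of 11786 genes with at least 20 UMIs, 571 (4.84%) were over 2-fold higher in the PFC graft and 691 (5.86%) over 2-fold lower. The median ratio of PFC to HIP over them was 0.949. None of the 7 genes that chose the cells and none of 18 young neuron genes (median ratio 1.19) passed 2-fold either way. Of the DLX partners and ventral factors, 1 of 8 did, the progenitor factor GSX1, at 13.3 CPM in PFC and 32.8 CPM in HIP (HIP over PFC 2.46, 1.56 to 3.89). In the CGE list (median ratio 0.859) 3 of 10 genes were over 2-fold higher in PFC and 2 over 2-fold lower. The higher genes were SCGN (8.37, 5.77 to 12.6), CALB2 (2.40, 1.5 to 4.02) and the cannabinoid receptor CNR1 (2.99, 1.87 to 5.04). The lower ones were NPAS3, and NR2F1, for which HIP over PFC was 2.29 (2.08 to 2.53) in GAD/DLX cells and the other cells were likewise at 840 CPM in HIP and 370 CPM in PFC. SCGN was also higher in PFC when only cells outside the cycling gate were read (7.22, 4.76 to 11.5), whereas for CALB2 that interval included 1 (1.52, 0.847 to 2.92). SST had a ratio of 8.74 (2.28 to 74.5). SLC32A1 had a ratio of 2.16 (1.18 to 4.26).

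Genes outside the lineage lists also differed between the libraries. Of the excitatory gate genes (median ratio 3.68) 5 of 6 with enough UMIs were over 2-fold higher in GAD/DLX cells of PFC_4MPT, where 5.35% of the cells passed that gate against 2.19% in HIP_4MPT. Of the 13 mitochondrially encoded genes (median ratio 2.38) 9 were over 2-fold higher in PFC, and the median mitochondrial share was 6.46% of UMIs in PFC and 2.71% in HIP (7.51% and 3.05% in the other cells). The metallothioneins, which bind metal ions, summed to 191 CPM in HIP and 488 CPM in PFC, and 6 of 7 were over 2-fold higher in PFC, with MT1E at 8.80 and 102 CPM (ratio 11.6, 6.4 to 23.5). Their sum was 737 and 1508 CPM in the other cells. Near-identical copies can share reads among metallothionein genes. Of 14 immediate early genes, which respond quickly to activity and to dissociation, 6 were over 2-fold higher in PFC. They summed to 3914 CPM in HIP and 5234 CPM in PFC in GAD/DLX cells, and to 5682 and 9918 CPM in the other cells. The median mouse share of UMIs was 6.41% in PFC and 2.44% in HIP. The part of these library differences in the ratios above was not tested.

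**Figure D5:**
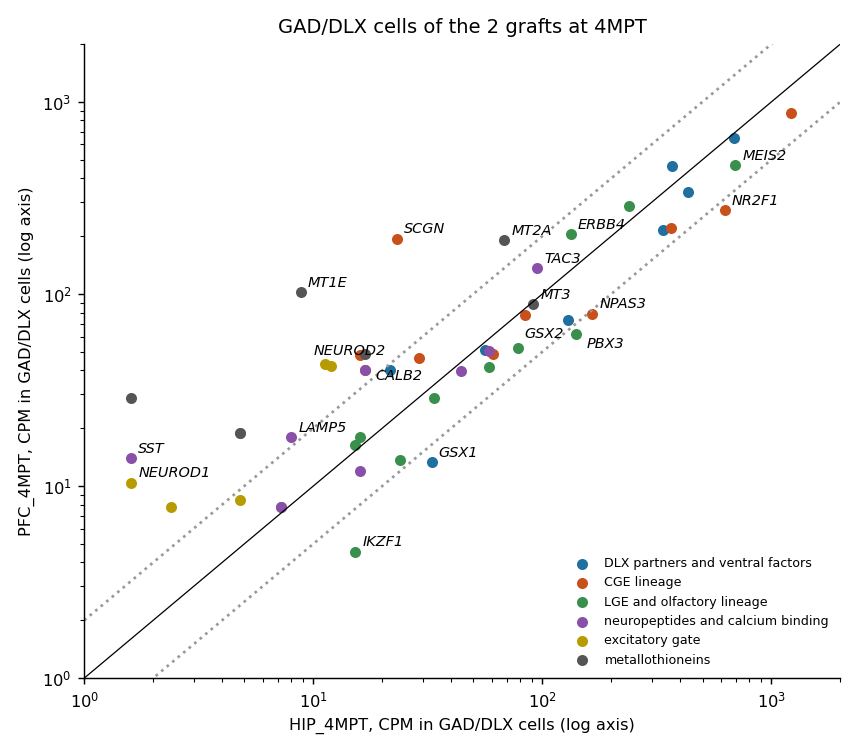
Levels in GAD/DLX cells of HIP_4MPT (x axis) and PFC_4MPT (y axis) in CPM on log axes, for genes of 6 lists that had 20 or more UMIs over the pair of libraries. The solid line marks equal levels, the dotted lines 2-fold differences, and error bars are left out. SCGN, MT1E, SST and the excitatory gate genes NEUROD2 and NEUROD1 lie above the upper dotted line, and GSX1, NR2F1, PBX3 and IKZF1 below the lower one.

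Between the stages, UMI sums of the GAD/DLX cells of each library were tested with edgeR's quasi-likelihood test across 8034 genes, the 7 choosing genes left out, and 1 gene was called at an adjusted p under 0.05 (0.0124% of those tested). DCDC1, a gene of the doublecortin family, was at 370 CPM in HIP_2MPT (2 UMIs), 174 CPM in PFC_2MPT, 8.80 CPM in HIP_4MPT and 22.8 CPM in PFC_4MPT. Both 2MPT libraries lay above both 4MPT libraries, and DCDC1 fell by 3.12 on the log2 scale (SE 0.591, edgeR adjusted p = 0.00112). DESeq2 called no gene (smallest adjusted p 1.00), and 399 genes had an unadjusted edgeR p under 0.05. The edgeR call was lost when cells passing the excitatory gate were left out (log2 change -2.69), with a human share of UMIs over 0.9 (-2.52), with graft site as a block (-2.83), without PFC_2MPT (-2.69) and without HIP_4MPT (-2.49). Without PFC_2MPT the genes called were all others and all higher at 4MPT, and without PFC_4MPT the calls went both ways. Each fit without 1 library has 1 library in a stage, so its spread comes from the other stage only. None of the genes tested from the lineage, GABA, neuropeptide, migration, young neuron and synapse lists was called. Their list medians ran from -0.70 for 5 neuropeptide and calcium-binding genes to 1.68 for 7 MGE genes, and the median log2 change over all genes tested was 0.21. In the same fit the medians were 2.47 for 5 astrocyte genes, 2.98 for 3 metallothioneins and 1.52 for 13 mitochondrially encoded genes. They were -0.04 for 15 progenitor and radial glia genes and -0.05 for 12 immediate early genes. The smallest library had 4 cells, where 1 UMI is 185 CPM. A sum over few cells does not separate fewer cells of a kind from less RNA per cell.

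Between the sites, with the stage as a covariate, 35 of 8034 genes were called by edgeR (0.436%), 14 higher in PFC (0.174%) and 21 lower (0.261%), while DESeq2 called none (smallest adjusted p 1.00) and 507 had an unadjusted edgeR p under 0.05. HIP_2MPT was at 0 for 19 of the 20 genes named by size, so the calls rest mainly on the 4MPT libraries. FOSB, an immediate early gene, was at 0, 54.4, 9.60 and 40.3 CPM in HIP_2MPT, PFC_2MPT, HIP_4MPT and PFC_4MPT, and rose by 2.20 (SE 0.489, edgeR adjusted p = 0.00499). PFC_4MPT lay above HIP_4MPT, and HIP_2MPT had no UMI. LY6H, a modulator of nicotinic receptors, was at 0, 32.6, 17.6 and 73.5 CPM (2.18, SE 0.491, edgeR adjusted p = 0.00579). NEUROD2 was at 0, 32.6, 11.2 and 43.3 CPM (2.07, SE 0.459) and BHLHE22 at 0, 43.5, 12 and 42 CPM (1.93, SE 0.459). They were 2 of 3 excitatory gate genes tested that were called, and both dropped under the count filter when the cells passing that gate were left out. In the CGE list 1 of 10 genes tested was called, CNR1, at 185, 54.4, 16 and 47.8 CPM (1.64, SE 0.440, edgeR adjusted p = 0.0472), and its HIP_2MPT value, 1 UMI, lay above both PFC libraries. Further genes called as higher in PFC were DISP3, VCL, LINGO1, AMH and CREB5, with log2 changes between 1.72 and 2.02. The direction turned for DISP3 within 2MPT (-3.09, from 1 UMI in HIP_2MPT) and for LINGO1 with DESeq2 (-0.45).

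Of the genes called as lower in PFC, 3 of those named were histone genes. HIST1H2AL was also called (-2.39), at a mean of 17.4 CPM, under the 20 CPM asked for naming. Histone genes formed no list here, so their share among the calls was not tested. None of the 7 cycling gate genes was called (1 positive and 6 negative log2 changes, median -0.37, against 0.11 over all genes tested). The histone genes HIST1H2AJ (-2.72, SE 0.425, edgeR adjusted p = 1.23e-06), HIST1H3J (-2.08) and HIST1H2AM (-1.77), whose near-identical copies make their counts uncertain, were called as lower in PFC. HIST1H2AJ was at 0, 21.8, 55.2 and 7.16 CPM in the 4 libraries. The DNA helicase BLM was at 0, 43.5, 59.2 and 15 CPM (-1.78, SE 0.387). IGFBP5, an insulin-like growth factor binding protein, was at 0, 10.9, 99.2 and 16.6 CPM (-2.42, SE 0.481, edgeR adjusted p = 0.00197). The share of cells in the cycling gate was 36.3% in HIP_4MPT and 21.5% in PFC_4MPT, and without those cells 5 genes were called in place of 35, with 5100 genes tested in place of 8034. Of named genes that lost the call there, FAAH2 had a log2 change of -2.03, CREB5 of 2.08, AMH of 2.43, DISP3 of 1.81 and BHLHE22 of 1.64. The part of the cycling share in the calls was not tested. AC003991.1, UTRN, GMDS-DT, FAAH2 and AL354733.3 were the other named genes that were lower in PFC, with changes between -2.43 and -1.78. All named genes called as lower in PFC had UMIs in PFC_2MPT and none in HIP_2MPT, with its 4 GAD/DLX cells. Within 2MPT their direction was thus not that of the call, which rests on the 4MPT libraries. Of the young neuron genes none of 18 tested was called, although the log2 change was positive for 17 (median 0.95, against 0.11 over all genes tested). Within 4MPT alone 12 of the 18 were higher in PFC and 6 lower (median ratio 1.19). In the same fit all 13 mitochondrially encoded genes (median 1.23) and all 12 immediate early genes tested (1.37) also had positive changes.

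Whether the stages differed otherwise in GAD/DLX cells than in excitatory-marker cells was tested as an interaction with edgeR across 14051 genes, and 6 were called (0.0427%), each with a lower log2 change from 2MPT to 4MPT in GAD/DLX cells. That direction turned with 1 library. Without PFC_2MPT every gene called had a higher change and none of the 6 was among them, and without HIP_2MPT the calls went both ways. Each of these fits has 1 library at 2MPT, HIP_2MPT with 4 GAD/DLX cells in the first. Its spread comes from the other groups only. DESeq2 called 2 of the same 6. OLIG1, a factor of the oligodendrocyte lineage and of ventral progenitors, was at 0, 131, 170 and 74.2 CPM in GAD/DLX cells and at 1.09, 1.32, 57.5 and 55.2 CPM in excitatory-marker cells in the order HIP_2MPT, PFC_2MPT, HIP_4MPT and PFC_4MPT (difference -4.95, SE 0.848, edgeR adjusted p = 3.76e-05). This value turned to 5.92 without PFC_2MPT, the library that holds the OLIG1 UMIs of the GAD/DLX cells at 2MPT. DCDC1 was at 2.55, 1.56, 7.93 and 1.13 CPM in excitatory-marker cells (-4.32, SE 0.697, edgeR adjusted p = 9.52e-06). The call was lost with DESeq2 (-4.26), after thinning (-3.21) and without HIP_2MPT (-4.71), PFC_2MPT (-3.45) or HIP_4MPT (-1.86). ETV1, a factor of LGE and layer 5 neurons, was at 370, 97.9, 58.4 and 41.6 CPM in GAD/DLX cells and at 4.73, 4.57, 42.4 and 21.5 CPM in excitatory-marker cells (-3.47, SE 0.710, edgeR adjusted p = 0.00372). That call was lost after thinning, without cycling cells, against all other graft cells, and without any 1 of PFC_2MPT, HIP_4MPT and PFC_4MPT, with values from -3.74 to -2.77. LRRC4C (-4.02) was called as well, but turned to 6.69 without PFC_2MPT and to 3.90 after thinning. ZFP36L2 (-3.21) was also called, and NXPH1 was the last, at a mean of 12.2 CPM and with no UMI in excitatory-marker cells at 2MPT. OLIG1 belongs to the glial list, ETV1 to the LGE list and NXPH1 to the MGE list, and no other list gene was called. The median of this difference over all genes tested was 0.74, against which these values stand, and 795 genes had an unadjusted p under 0.05. For the sites, 2 of 14051 genes were called (0.0142%), DCDC1 (3.47, SE 0.733, edgeR adjusted p = 0.0156) and NR2F2-AS1 at a mean of 15.5 CPM, DESeq2 called none, and 384 had an unadjusted p under 0.05.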

How the data were processed

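The deposited UMI counts per gene and barcode were made by the authors with Cell Ranger (3.1 in the submitters' processing notes, 3.1.0 in the header of D0 and 5.0.0 in those of the grafts) against GRCh38. Graft reads were counted a second time on a combined human and mouse reference. They are not normalized. Barcodes and UMIs on the human reference were 10111 and 12451092 (HIP_2MPT), 6551 and 15734989 (PFC_2MPT), 8406 and 23911467 (HIP_4MPT), 11692 and 20213518 (PFC_4MPT), and 5675 and 57135277 (D0).

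Here, human graft cells had over 500 UMIs, over 500 genes, a mitochondrial share under 0.15 and a human share of UMIs over 0.8. GAD/DLX cells had UMIs of at least 2 of the 7 genes. Members, gates and gene lists were chosen with earlier results of these data known. UMIs were summed per library and tested with edgeR 4.0.16 (filterByExpr, TMM, robust quasi-likelihood, Benjamini-Hochberg, 0.05) in R 4.3.3, with DESeq2 1.42.0 as an alternative, and the SE is the log2 change divided by the root of F. Named genes were, per direction, the 10 called genes that changed most and averaged 20 CPM or more, the 15 with the largest median ratio to excitatory-marker cells, leaving out the 7 choosing and 7 excitatory gate genes, and list genes. Other genes were named after their values were seen. Some genes that these rules select are not reported here. On simulated data edgeR recovered 24 of 100 genes changed 4-fold and 66 of 100 changed 16-fold between the stages (7558 genes, 1 false call), and 12 and 70 between the sites (7296 genes, 4 false calls). In the stage interaction 36 and 70 were recovered (13847 genes, 2 false calls), and in the site interaction 1 and 71 (13810 genes, 3 false calls). The simulation gave every gene of a fit the same dispersion, the spread between libraries beyond counting error. It changed only genes that averaged 20 CPM or more. Real genes can differ in dispersion, so recovery and false calls in the real fits were not tested. Intervals (95%) and limits for a count of 0 (3 counts) cover counting error only. Python 3.11.15 with pandas 2.3.3, numpy 2.4.6 and scipy 1.17.1 was used. Alternatives were other filters, thinning, leaving out gated cells or a library, other normalization and tools.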

Additional observations from a re-analysis of the deposited data

Results flagged for a closer look

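Changes from 2MPT to 4MPT that differed between GAD/DLX cells and excitatory-marker cells by the interaction test of edgeR were those of OLIG1 (-4.95, SE 0.848, adjusted p = 3.76e-05), DCDC1 (-4.32, SE 0.697, adjusted p = 9.52e-06), LRRC4C (-4.02, SE 0.940, adjusted p = 0.0441), ETV1 (-3.47, SE 0.710, adjusted p = 0.00372), ZFP36L2 (-3.21, SE 0.724, adjusted p = 0.0262) and NXPH1. NXPH1 had no UMI in excitatory-marker cells of either 2MPT library and 6 UMIs in GAD/DLX cells at 2MPT, so no size is given for it. OLIG1 and LRRC4C turned positive without PFC_2MPT (5.92 and 6.69), and the calls of the 5 genes given with a value were each lost under 4 or more other settings. The difference between PFC and HIP also differed between the classes for DCDC1 (3.47, SE 0.733, adjusted p = 0.0156). That call was lost under 6 of 14 settings, with values from 2.96 (DESeq2) to 7.41 (thinned).

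GAD, DLX and SP9 genes also appeared in data outside the comparisons. Among barcodes of the mouse host, 44 of 772 in PFC_2MPT (5.70%) and 119 of 1202 in PFC_4MPT (9.90%) had a UMI of 2 or more of the mouse copies of the 7 genes, against 0 of 916 in HIP_2MPT and 2 of 2071 in HIP_4MPT (0.0966%). In organoids before grafting, 434 of 4900 D0 cells (8.86%) had 2 or more of the human genes. The median depth of the 4900 D0 cells was 9841.5 UMIs, and after thinning to 1000 UMIs the share was 2.58% (119 of 4618 cells). Of the 434 cells 97 (22.4%) also passed the excitatory gate, as did 3 of the 119 found after thinning.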

How the results depend on the processing

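The difference in share between 4MPT and 2MPT was 5.03 to 15.6 percentage points when 1 library was left out and 7.76 to 11.4 under the other settings, each with an exact permutation p of 0.333 where it could be tested. Counts of called genes also moved. A fit with 1 library left out has 1 library in a stage and takes its spread from the other groups, so its counts are a description only. Between the stages, 0 genes were called with a human share over 0.9, after thinning, without excitatory-gate cells, with DESeq2 and with graft site as a block, and 2 to 18 when a library was left out (18 without PFC_2MPT, all higher and none shared). Between the sites, 13 were called with 3 genes required, 0 after thinning and with DESeq2, 5 without cycling cells, 18 without glial-gate cells and 79 without the filter on low counts. Leaving out a library leaves this fit no residual degree of freedom and was not run. In the stage interaction, 3 were called with 3 genes required, 0 after thinning, 10 without glial-gate cells, 2 with DESeq2, 13 with all other graft cells as comparator, and 1 to 227 when a library was left out (227 without PFC_2MPT, all higher, and 44 without HIP_2MPT, 25 of them higher). In the site interaction, 5 were called with 3 genes required, 1 with a human share over 0.9 and without excitatory-gate cells, 0 with a mitochondrial share under 0.10, after thinning, without cycling cells and with DESeq2, and 4 with the other comparator. Genes higher than excitatory-marker cells in all 4 libraries numbered 317 after thinning, and those lower 3558. Values that reversed were DISP3 between PFC and HIP within 2MPT (-3.09, 1 UMI in HIP), LINGO1 with DESeq2 (-0.45), OLIG1 in the stage interaction with 3 genes required (5.50) and LRRC4C after thinning (3.90). A ratio within a stage was taken only where both libraries had a UMI, which within 2MPT left DISP3 alone. The named genes called as lower in PFC had no UMI in HIP_2MPT and some in PFC_2MPT, such as HIST1H2AM at 0 and 65.3 CPM. Their direction within 2MPT was therefore also opposite to the call. With 1 library left out OLIG1 ran from -5.52 to 5.92 and LRRC4C from -4.58 to 6.69, both positive without PFC_2MPT. The cause was not tested. Of the other values of single genes, 174 tested values between the sites kept direction and call and 42 lost the call. With 1 CPM added in place of 5, TAC3 over excitatory-marker cells was 6.33, PLS3 5.92, HS6ST3 -6.25 and LINC01405 -5.67. DCDC1 between the stages kept direction and call under 11 settings and lost the call under 6. Of these settings 1, a filter on log10 genes over log10 UMIs, left out no cell. Its values equal the main ones by design, and it is counted here and among the 174 values between the sites. In the stage interaction the call was lost with the direction kept under 4 settings for OLIG1, 5 for DCDC1, 5 for LRRC4C, 6 for ETV1 and 9 for ZFP36L2, of 18 each. OLIG1 and LRRC4C also lost it under the settings given above that reversed them. In the site interaction the call was lost under 6 of 14 for DCDC1 (human share over 0.9, mitochondrial share under 0.10, thinning, without excitatory-gate or cycling cells, and DESeq2). The labels give no replicate numbers that pair libraries. With graft site as a block the stage change of DCDC1 was -2.83 (edgeR adjusted p = 1.00), and the interactions had the library as a block.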
